A study of Mus musculus with 2 samples.

Results

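A set of 9 CC chemokine genes that encode attractants of myeloid cells (Ccl2, Ccl3, Ccl4, Ccl5, Ccl6, Ccl7, Ccl8, Ccl9 and Ccl12) and the receptor gene Ccr1 were examined in inflamed mouse ear skin. These 10 genes were taken from a list by symbol, out of 34745 genes in the count table, and all 10 were found there. RNA-seq was made from 1 library of ear skin labelled WT and 1 labelled KAT8-cKO, a conditional knockout of the histone acetyltransferase gene Kat8. The ears of both groups had been treated with imiquimod, an agonist of TLR7 that produces a psoriasis-like inflammation in mice. The dose was 30 mg of a 5% cream per ear daily for 3 days, and ears were taken on day 4. For the conditional knockout, the Cre driver and its cell type are not stated in the labels, and strain, age, sex and the number of animals behind each library are likewise not stated there. Both libraries come from treated ears, and untreated skin was not analysed here.

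CC chemokines are small secreted proteins, named for a pair of adjacent cysteines near the start of the mature chain, that bind G protein-coupled receptors on leukocytes and guide their movement. Ccl2, Ccl7 and Ccl12 are ligands of Ccr2, the receptor that draws monocytes from blood, and belong with Ccl8 to the monocyte chemoattractant (MCP) group. Ccl3 and Ccl4 are macrophage inflammatory proteins (MIP-1 alpha and beta) that attract monocytes, macrophages and T cells, and Ccl3 and Ccl5 (RANTES) are ligands of Ccr1. Ccl6 and Ccl9 are rodent ligands of Ccr1, a receptor carried by neutrophils, monocytes and macrophages. In skin these ligands are made by resident and recruited myeloid cells and, for the MCP group, also by fibroblasts, keratinocytes and endothelium.

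The coding sequence around the cysteine pair is shown for the 9 ligands, since it is the feature that defines the family and shows how far its members differ. Each window of 54 bases is from the GENCODE M21 coding transcript, written 5′ to 3′, with the codons of the adjacent cysteines in capitals.
Ccl2: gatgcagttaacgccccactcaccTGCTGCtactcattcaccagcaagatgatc
Ccl7: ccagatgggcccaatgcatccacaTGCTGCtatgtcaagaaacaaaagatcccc
Ccl8: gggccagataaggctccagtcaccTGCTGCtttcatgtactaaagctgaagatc
Ccl12: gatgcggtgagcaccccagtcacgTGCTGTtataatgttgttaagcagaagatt
Ccl3: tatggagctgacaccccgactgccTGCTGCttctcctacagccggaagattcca
Ccl4: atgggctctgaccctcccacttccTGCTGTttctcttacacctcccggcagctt
Ccl5: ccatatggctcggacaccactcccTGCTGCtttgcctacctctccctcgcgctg
Ccl6: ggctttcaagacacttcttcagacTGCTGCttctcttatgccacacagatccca
Ccl9: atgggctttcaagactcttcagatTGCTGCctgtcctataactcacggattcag

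The pair begins at base 100 of the coding sequence in Ccl2, Ccl3 and Ccl4, at base 148 in Ccl6 and at base 169 in Ccl9, whose chains are longer before it. Over whole coding sequences, which pair was most alike depended on how gaps were treated. With gaps counted as differences it was Ccl3 and Ccl4 (68.1% identical), and over aligned bases alone it was Ccl2 and Ccl7 (72.1%, against 71.1% for Ccl3 and Ccl4). These differences bear on the counts, because reads from near-identical genes can be split between them. No stretch of 50 bases of the coding transcripts of Ccr1 and of the ligands other than Ccl9 occurred in a transcript of another gene. In Ccl9, 59 of 2957 such stretches did, in transcripts of 463 other genes. No exon of the 10 genes overlapped an exon of another gene of the table.

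The libraries held 12179608 (WT) and 13727524 (KAT8 cKO) counts on genes. Levels are given as CPM, the usual per-library normalized unit, in which a count is divided by the library total after that total was multiplied by its TMM normalization factor, so that 1 count was worth 0.0868 CPM in WT and 0.0689 in KAT8 cKO. Ratios compare the library labelled KAT8 cKO with that labelled WT. There was 1 library per genotype and no replicate, so no difference could be tested or set against the spread between animals. The 95% intervals cover counting error only. Kat8 itself went against the label, with 219 counts in WT and 351 in KAT8 cKO (1.27-fold higher, interval 1.07 to 1.51), and an exon of it overlaps one of Prss8. Sex-linked transcripts also differed, with Xist at 11891 and 6 counts. The Y-linked genes Eif2s3y, Kdm5d and Uty had 0 counts in WT and 838, 305 and 207 in KAT8 cKO, and Ddx3y had 5 and 635. This is a female pattern in WT and a male pattern in KAT8 cKO. Sex and genotype label thus differ together in every ratio given here and cannot be told apart. KAT8 cKO and WT therefore stand, throughout, for the libraries so labelled.

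Of the 10 genes, 5 (Ccl3, Ccl4, Ccl6, Ccl8 and Ccr1) had a KAT8 cKO level at least 2-fold below that in WT, and 1 (Ccl7) was at least 2-fold higher. Ccl2, Ccl5, Ccl9 and Ccl12 lay within 2-fold. Among all 15240 genes measured (at least 1 CPM in either library), 8.63% were at least 2-fold lower and 4.56% at least 2-fold higher. The median log2 ratio, computed with 1 CPM added to each level, was -1.29 over the 10 genes and 0.01 over all measured genes. With CPM from library totals alone, without the TMM factors, 1056 genes were lower and 964 higher instead of 1315 and 695, the median of all genes lay at 0.16, and the counts among the 10 genes were still 5 and 1. The scale mattered more when levels were set against the summed counts of 5 genes common to leukocytes (Ptprc, Coro1a, Laptm5, Cd52 and Lcp1), an alternative chosen after the values were seen. On that scale, which puts the median of all measured genes at 1.08, Ccl3 and Ccl4 were at least 2-fold lower and Ccl2 and Ccl7 at least 2-fold higher. Ccl6, Ccl8 and Ccr1 lay between -0.78 and -0.77. This depended on the leukocyte genes used, of which Lcp1 alone held 696 of 1552 CPM in WT. Per count of Ptprc alone, Ccr1 was 2.14-fold lower (interval 1.93 to 2.37) and Ccl6 2.13-fold lower (interval 1.95 to 2.33). Ccl3 was 5.41-fold lower on that measure, and the other genes were not set against Ptprc. In whole tissue, fewer cells of a type and less RNA per cell cannot be told apart.

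**Figure D1:**
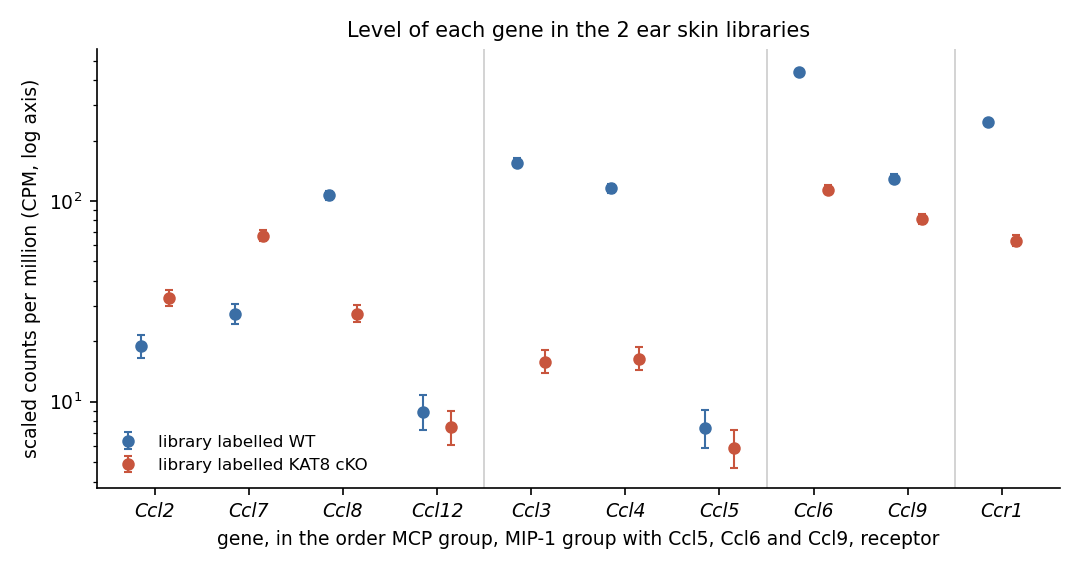
Level of each of the 10 genes in the 2 libraries, in scaled CPM on a log axis, with 95% Poisson intervals for counting error; vertical lines separate the groups of genes. Ccl3 and Ccl4 are above 100 CPM in the library labelled WT and near 16 CPM in that labelled KAT8 cKO, while Ccl2 and Ccl7 are the points that are higher in KAT8 cKO.

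The MIP-1 genes differed most. Ccl3 (ENSMUSG00000000982, GRCm38 chromosome 11 from 83647844 to 83649355, minus strand) had 1790 counts in WT and 230 in KAT8 cKO, or 155 and 15.8 CPM. It was 9.80-fold lower (interval 8.54 to 11.3), and 34 of the 15240 measured genes had a lower ratio. Ccl3 was thus far higher in WT than in KAT8 cKO. Ccl4 (ENSMUSG00000018930, chromosome 11 from 83662584 to 83664683, plus strand) had 1330 and 238 counts, or 115 and 16.4 CPM, and was 7.04-fold lower (interval 6.13 to 8.12). The count of Ccl3 per count of Ccl4, which does not depend on library scaling, was 1.35 in WT and 0.966 in KAT8 cKO, a difference of 1.39-fold (interval 1.14 to 1.70). The pair was therefore low together, with Ccl3 somewhat further down. Ccl5 (ENSMUSG00000035042, chromosome 11 from 83525778 to 83530518, minus strand), which T cells and natural killer cells also make, had 85 counts in each library. Its levels were 7.38 and 5.86 CPM, a ratio of 0.794 whose interval of 0.581 to 1.09 spans equal levels.

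The MCP genes went in both directions. Ccl7 (ENSMUSG00000035373, chromosome 11 from 82045712 to 82047525, plus strand) had 315 counts in WT and 975 in KAT8 cKO, or 27.3 and 67.2 CPM, and was 2.46-fold higher (interval 2.16 to 2.80). Ccl2 (ENSMUSG00000035385, chromosome 11 from 82035571 to 82037453, plus strand), the main monocyte attractant of the group, had 217 and 475 counts, or 18.8 and 32.7 CPM. Its ratio was 1.74 (interval 1.48 to 2.05), below the 2-fold line. Both genes were thus higher in the library in which the MIP-1 genes were low. Ccl8 (ENSMUSG00000009185, chromosome 11 from 82115185 to 82116799, plus strand), whose mouse protein acts on Ccr8, went the other way, with 1228 and 399 counts, or 107 and 27.5 CPM. It was 3.88-fold lower (interval 3.46 to 4.35). Ccl12 (ENSMUSG00000035352, chromosome 11 from 82101845 to 82103400, plus strand), the mouse relative of Ccl2, had 102 and 108 counts, or 8.85 and 7.44 CPM. Its ratio of 0.841 had an interval of 0.635 to 1.11, so a difference was not detectable at this depth. The number of Ccl7 counts per Ccl8 count was 0.257 in WT and 2.44 in KAT8 cKO, a 9.53-fold difference (interval 8.01 to 11.3) that is free of library scaling. The 4 MCP genes summed to 162 CPM in WT and 135 in KAT8 cKO, so their sum differed much less than Ccl7 and Ccl8 did singly.

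**Figure D2:**
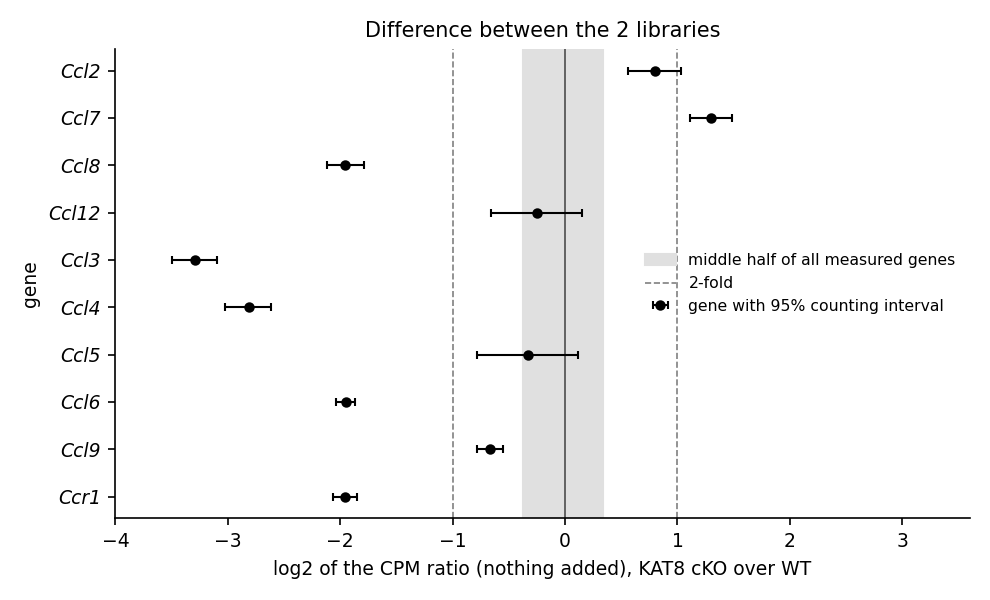
Log2 of the CPM ratio (KAT8 cKO over WT, no pseudocount) of each gene with its 95% counting interval; dashed lines mark 2-fold and the grey band is the interquartile range of all 15240 measured genes (-0.38 to 0.33 with 1 CPM added). Ccl3, Ccl4, Ccl6, Ccl8 and Ccr1 lie beyond the lower line and Ccl7 beyond the upper line, and the intervals of Ccl5 and Ccl12 span 0.

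The Ccr1 ligands Ccl6 and Ccl9 were both lower in KAT8 cKO, by unequal amounts. Ccl6 (ENSMUSG00000018927, chromosome 11 from 83587882 to 83593087, minus strand) had 5081 counts in WT and 1654 in KAT8 cKO, or 441 and 114 CPM. It was 3.87-fold lower (interval 3.66 to 4.09). Ccl9 (ENSMUSG00000019122, chromosome 11 from 83572919 to 83578636, minus strand), its neighbour, had 1485 and 1178 counts, or 129 and 81.2 CPM. It was 1.59-fold lower (interval 1.47 to 1.72), short of the 2-fold line, and reads from its 59 repeated stretches may belong elsewhere. The count of Ccl6 per count of Ccl9 went from 3.42 to 1.40, a 2.44-fold difference (interval 2.21 to 2.68).

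The receptor gene Ccr1 (ENSMUSG00000025804, chromosome 9 from 123962124 to 123968692, minus strand) had 2842 counts in WT and 921 in KAT8 cKO, or 247 and 63.5 CPM. It was 3.89-fold lower (interval 3.61 to 4.19). The ratios of Ccr1 and of its ligand gene Ccl6 were nearly equal, with 0.559 Ccr1 counts per Ccl6 count in WT and 0.557 in KAT8 cKO (interval of the ratio of these, 0.906 to 1.09). This was not particular to receptor and ligand. Ccl8, whose protein acts on Ccr8, was 3.88-fold lower, while the other Ccr1 ligand genes Ccl3, Ccl9 and Ccl5 were 9.80-fold, 1.59-fold and 1.26-fold lower. Ccr2, the receptor of MCP ligands, named after its values were seen, was not lower with Ccr1. Ccr2 had 269 counts in WT and 512 in KAT8 cKO (23.3 and 35.3 CPM). There were 10.6 Ccr1 counts per Ccr2 count in WT and 1.80 in KAT8 cKO, a 5.87-fold difference (interval 4.96 to 6.96). In all, 21 such pairs of genes were computed, including pairs with single marker genes, and they were chosen with the values of the genes known.

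The make-up of the ligand transcripts was compared per length of transcript, since Ccl9 is several times longer than Ccl8. In CPM per kilobase of the coding transcript, the order in WT from high to low was Ccl6, Ccl8, Ccl3, Ccl4, Ccr1, Ccl9, Ccl7, Ccl2, Ccl12 and Ccl5. In KAT8 cKO it was Ccl7, Ccl6, Ccl8, Ccl2, Ccl9, Ccl4, Ccr1, Ccl3, Ccl12 and Ccl5. Ccl7, in position 7 in WT at 34.1 CPM per kilobase, was the most abundant of the 10 in KAT8 cKO at 83.9, just above Ccl6 at 79.1. Ccl3 moved from position 3 (203 CPM per kilobase) to position 8 (20.7). Ccl12 and Ccl5 were the least abundant in both libraries, and the span from the highest to the lowest gene was 22.1-fold in WT and 7.62-fold in KAT8 cKO. The 9 ligands summed to 1023 CPM per kilobase in WT and 354 in KAT8 cKO, 2.89-fold less. Ccl3 and Ccl4 made up 19.8% and 17.1% of this sum in WT and 5.84% and 7.01% in KAT8 cKO. Ccl2 and Ccl7 made up 2.26% and 3.34% in WT and 11.4% and 23.7% in KAT8 cKO, while Ccl6 took 29.9% and 22.3%. Neighbours in these orders differ by little in places, such as Ccl8 and Ccl3 in WT (209 and 203), and the spread between animals is unknown.

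**Figure D3:**
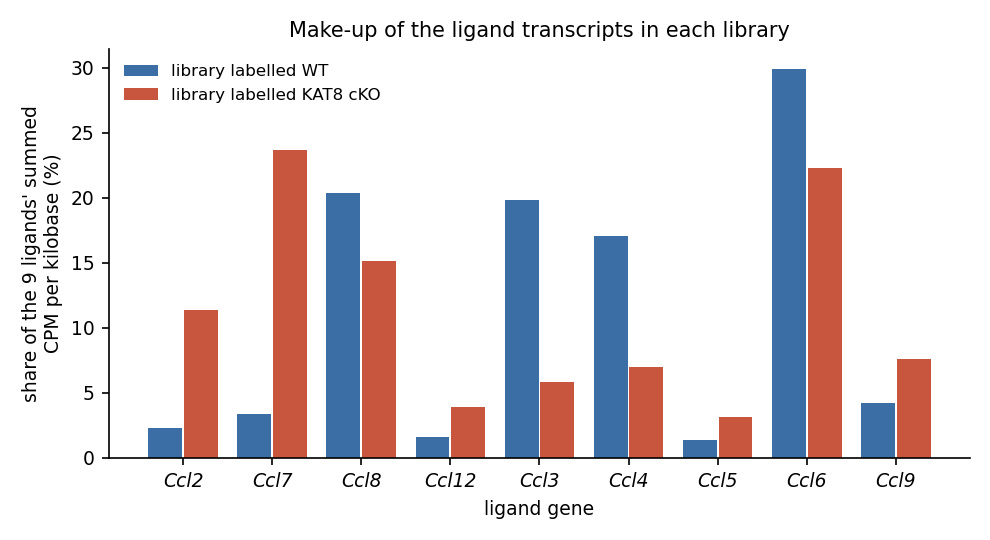
Share of each ligand gene in the summed CPM per kilobase of the 9 ligands, in percent, in each library (bars start at 0, 1 library per genotype and hence no error bar). Ccl6, Ccl8, Ccl3 and Ccl4 have the tallest bars in WT, and Ccl7, Ccl6, Ccl8 and Ccl2 in KAT8 cKO.

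The ligand genes lie in 2 clusters on chromosome 11, which are 1.41 Mb apart, and the ratios varied within each. In the first, the neighbours Ccl2 and Ccl7 (starts 10.1 kb apart) had log2 ratios of 0.77 and 1.27. The next gene, Ccl11, an attractant of eosinophils, had -1.12, and Ccl12 and Ccl8 at the far end had -0.22 and -1.92. In the second, the ratio was lower gene by gene from Ccl5 (-0.29) through Ccl9 (-0.66) and Ccl6 (-1.94) to Ccl3 (-3.21), with Ccl4 at -2.74. Ccl3 and Ccl4 are on opposite strands with their starts 13.2 kb apart. Beyond them, Wfdc17, named after its value was seen, had -2.52, and Wfdc18 and Taf15 on the 2 flanks had 0.61 and 0.05. Between the clusters 24 genes were measured, with a median of -0.15, 3 at least 2-fold lower and none higher. On chromosome 9, Ccr1 had -1.94, Ccr3 -0.88 on 14 and 3 counts and Ccr2 0.58.

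**Figure D4:**
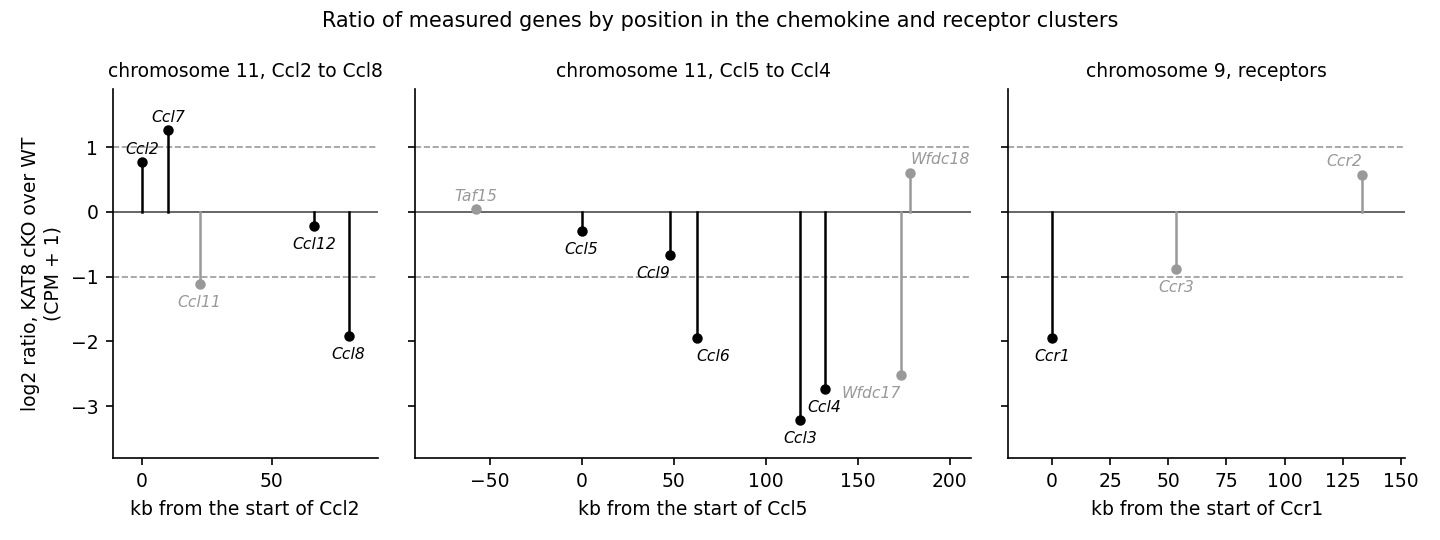
Log2 ratio (KAT8 cKO over WT, 1 CPM added) of measured genes in the Ccl2 to Ccl8 cluster, the Ccl5 to Ccl4 cluster and the receptor cluster, with up to 60 kb on each side, by distance in kb from the start of Ccl2, Ccl5 and Ccr1; black marks the 10 genes, grey other genes, dashed lines 2-fold. Ccl2 and Ccl7 point up at one end of the first cluster, and Ccl6, Ccl3 and Ccl4 point down in the second.

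Promoter sequence from RefSeq (GRCm38.p6) was at hand for 6 of the 10 genes, Ccl3, Ccl6, Ccl8, Ccl9, Ccl12 and Ccr1. The 250 bases before the start are printed for the 4 of them that were at least 2-fold lower in KAT8 cKO, to show what these promoters do and do not share. Capitals mark matches to any of 5 motifs, which were the NF-kB consensus, AP-1 (TGANTCA), C/EBP (TTNCNNAA), PU.1 (GAGGAA), each on both strands, and a TATA box (TATAAA) on the gene's strand.
Ccl3, chr11:83649379-83649628, minus strand: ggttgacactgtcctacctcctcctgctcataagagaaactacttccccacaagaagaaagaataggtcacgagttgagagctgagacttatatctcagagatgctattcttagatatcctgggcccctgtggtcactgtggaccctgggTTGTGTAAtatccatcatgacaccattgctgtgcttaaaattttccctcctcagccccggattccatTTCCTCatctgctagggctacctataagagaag
Ccr1, chr9:123968693-123968942, minus strand: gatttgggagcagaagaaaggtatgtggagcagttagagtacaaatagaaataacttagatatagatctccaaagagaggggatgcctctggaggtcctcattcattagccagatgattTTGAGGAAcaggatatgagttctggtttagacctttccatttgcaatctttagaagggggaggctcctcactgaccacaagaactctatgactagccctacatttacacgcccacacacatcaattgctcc
Ccl6, chr11:83593088-83593337, minus strand: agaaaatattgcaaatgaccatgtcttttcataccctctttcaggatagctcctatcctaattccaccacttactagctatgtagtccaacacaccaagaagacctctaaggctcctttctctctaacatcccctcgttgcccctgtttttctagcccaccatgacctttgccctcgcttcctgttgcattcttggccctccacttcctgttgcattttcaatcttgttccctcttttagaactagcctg
Ccl8, chr11:82114935-82115184, plus strand: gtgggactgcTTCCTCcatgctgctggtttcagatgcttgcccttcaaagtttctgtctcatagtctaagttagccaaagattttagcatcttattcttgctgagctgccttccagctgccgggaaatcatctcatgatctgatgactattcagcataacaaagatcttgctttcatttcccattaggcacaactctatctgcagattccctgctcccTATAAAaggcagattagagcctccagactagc

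Ccl3 held a C/EBP match and, 33 to 28 bases before the start, a PU.1 match. In Ccr1 the C/EBP and PU.1 matches overlapped. Ccl8 held a PU.1 match and a TATA box 32 to 27 bases before the start, and Ccl6 held none of the 5 motifs. The other 2 promoters, of genes within 2-fold, had a PU.1 match and a TATA box (Ccl12) and matches to NF-kB, AP-1, C/EBP (2, of which 1 overlaps the NF-kB match) and TATA (Ccl9). Over all 32851 promoters of the table, 3.90% held the NF-kB motif, 6.75% AP-1, 36.8% C/EBP, 23.3% PU.1 and 7.59% TATA. No motif was present in all 4 promoters of the lower genes. The GC content of the 6 promoters lay between 43.6% and 48.4%, below the median of 52.4% over all promoters. A match is a run of letters and not a binding site.

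The transcripts also carry the AU-rich pentamer ATTTA, which decay factors such as the product of Zfp36 bind in cytokine mRNAs. At least 1 was found in the 3′ UTR of 8 of the 10 genes, against 68.2% of 19745 genes with a 3′ UTR of at least 100 bases. Ccl12 had 5 in 167 bases and Ccl3 had 5 in 409 bases (12.2 per kilobase, against a median of 1.35 over all genes). Ccl4 and Ccl7 had 2 each, Ccl6 4, Ccl9 5, and Ccl2 and Ccr1 1 each. Ccl8 and Ccl5 had none. Lower and higher genes thus both carried it. The longer motif TTATTTATT was in none of the 10, and in only 8.02% of the 19745 genes.

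Genes around these chemokines were described from 4 lists, beside the shares of all measured genes given above. Of 14 other CC chemokines 6 were measured, with 2 higher, 1 lower and a median of 0.50. Ccl22, a dendritic cell product that attracts Ccr4-bearing T cells, had 29 and 325 counts (8.90-fold higher, interval 6.08 to 13.5). Ccl20, the ligand of Ccr6 made by keratinocytes, went from 29.6 to 65.5 CPM (2.21-fold higher), and Ccl11 had 110 and 56 counts (2.47-fold lower, interval 1.78 to 3.48). Of 13 other CC receptors and decoys 10 were measured, with 2 higher, 2 lower and a median of 0.08. Ccrl2, an atypical receptor that is induced in activated myeloid cells, had 541 counts in WT and 87 in KAT8 cKO, or 47.0 and 5.99 CPM, and was 7.83-fold lower (interval 6.24 to 9.94). Ccr7, which guides dendritic cells to lymph nodes, had 19 and 107 counts (4.47-fold higher), the scavenger Ackr4 44 and 194 (log2 ratio 1.58) and Ccr9 18 and 3 (7.56-fold lower, interval 2.21 to 40.1). Exons of Ackr4 and Ccr9 overlap those of other genes.

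All 25 genes of the receptor signalling list were measured, and 5 were lower, 1 higher and 19 within 2-fold (median -0.29). Rgs1, an inhibitor of G protein signalling in leukocytes, was 5.18-fold lower (378 and 92 counts), and Rac2, a small GTPase of leukocytes, was 2.61-fold lower (2610 and 1258 counts). Grk3, a receptor kinase, was 2.33-fold higher. Of the 15 inducers and decay factors 13 were measured, with 3 lower, none at least 2-fold higher and a median of -0.38. The 3 were Il1a (64.3 and 11.2 CPM, 5.76-fold lower), Il1b (1238 and 271 CPM, 4.57-fold lower) and Zfp36 (391 and 143 CPM, 2.74-fold lower). Exons of Il1a and Il1b overlap those of Gm14023 and Il1bos. Tnf and Nfkb1, inducers of these chemokines named after their values were seen, had log2 ratios of -0.74 and 0.25, and Ifng had 0 counts in both libraries.

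Markers of the cells that make these chemokines differed between the libraries as well. Pan-leukocyte genes were at least 2-fold lower in 3 of 5 cases and summed to 1552 CPM in WT and 688 in KAT8 cKO, with log2 ratios from -1.69 (Lcp1) to -0.36 (Laptm5). Of 12 neutrophil markers 10 were measured and 8 were lower (median -1.88, summed 14041 and 5083 CPM), and none of the 12 was at 0 counts. Most of that sum came from S100a8 (5844 and 2230 CPM) and S100a9 (4739 and 2372 CPM), so it says little about the other markers. The log2 ratios of the neutrophil markers ran from -4.21 (Ngp) to -0.86 (Camp). That of Ccr1 (-1.94) lay within this wide range, as did those of Ccl3, Ccl4, Ccl6 and Ccl8. The same ratios also lay within the ranges of the skeletal muscle markers (-3.64 to -1.59) and adipocyte markers (-3.69 to -0.33). Lying within a range is thus not particular to neutrophil markers. The Ccr1 ratio also lay within the range of the monocyte markers (-2.42 to 0.95). Monocyte markers were lower in 5 of 9 cases (median -1.38, summed 1762 and 645 CPM) and macrophage markers in 4 of 10 (median -0.82, summed 980 and 560 CPM), with none at 0 counts. The monocyte markers did not move as one. Of the 9, 6 had log2 ratios below 0, while Vcan (0.95), Ccr2 (0.58) and Csf1r (0.13) were above 0. Cd14 alone held 882 of the 1762 CPM in WT. Dendritic and Langerhans cell markers were higher in 5 of 7 measured (median 1.49, summed 84.0 and 219 CPM, Xcr1 at 0 counts in WT). H2-Ab1 alone supplied 56.9 and 166 CPM of these sums, and Zbtb46 (-0.31) and Itgax (0.22) lay within 2-fold. T cell markers were higher in 3 of 6 measured (median 0.83, summed 98.2 and 240.1 CPM) and natural killer cell markers in 3 of 4 (median 1.19, summed 5.73 and 14.3 CPM, Eomes at 0 in WT). Of the natural killer cell list, Ncr1 (1 and 3 counts), Klrb1c (4 and 10) and Eomes (0 and 2) were too low to be measured. Those measured were Nkg7, Gzma, Gzmb and Prf1, the last on 2 and 34 counts. Thy1 alone supplied 86.7 and 214.9 CPM of the T cell sums. The counting intervals of Cd3e, Cd3d and Cd4 spanned equal levels. Of the 5 eosinophil markers 1 was measured, and Epx was at 0 in both libraries, Il5ra in WT and Prg2 in KAT8 cKO. Among cells that can also make MCP ligands, fibroblast markers summed to 2038 and 3000 CPM (1 of 5 higher, median 0.69, from -0.06 for Dcn to 1.14 for Col1a1, beside 0.77 for Ccl2 and 1.27 for Ccl7), endothelial markers to 223 and 158 CPM (median -0.56) and keratinocyte markers to 28623 and 28368 CPM (2 of 7 lower, median -0.08). Mast cell markers had a median of -0.32 (summed 156 and 194 CPM), and the 2 measured B and plasma cell markers one of -0.30 (summed 21.9 and 17.8 CPM). Skeletal muscle, adipocyte and red cell markers were lower still (medians -2.72, -3.57 and -3.57), with summed levels of 9387 and 1341 CPM, 1632 and 146 CPM, and 171 and 9.03 CPM. The part of any of these markers in the ratios of the 10 genes was not tested.

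**Figure D5:**
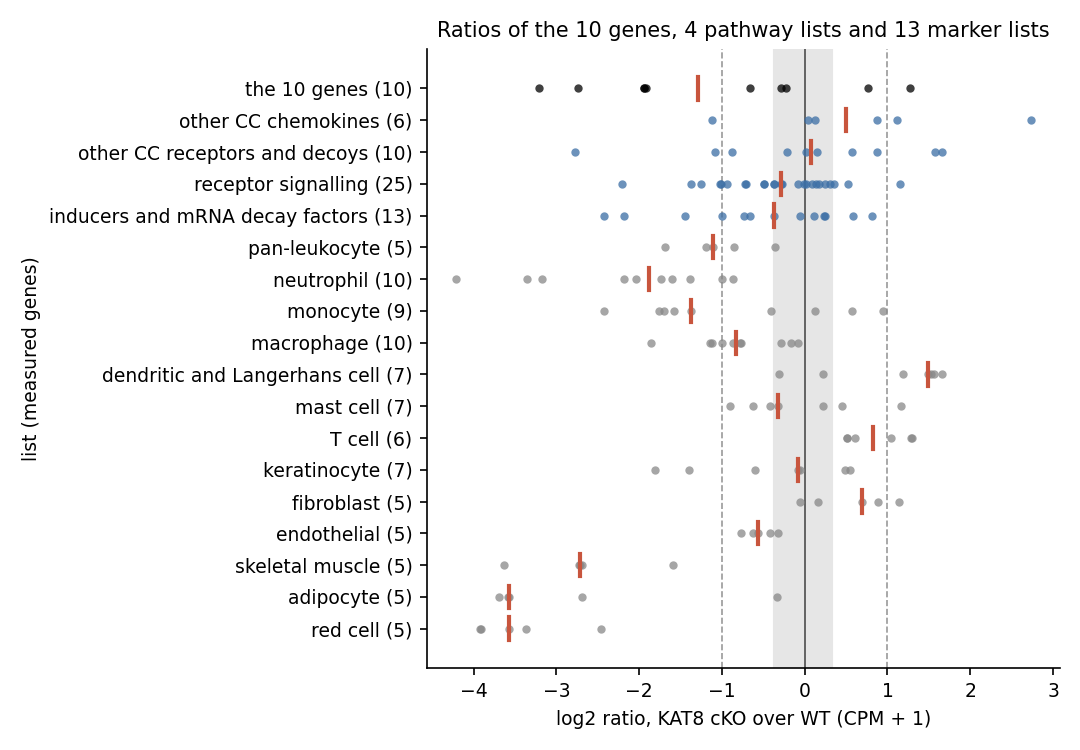
Log2 ratio (KAT8 cKO over WT, 1 CPM added) of each measured gene of the 10 (black), of 4 pathway lists (blue) and of 13 marker lists (grey), with the median of each in red, the interquartile range of all measured genes as a grey band and 2-fold as dashed lines; numbers in brackets are measured genes. The 10 genes spread from -3.21 to 1.27, the neutrophil markers lie wholly below 0, and the dendritic and Langerhans cell median is 1.49.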

How the data were processed

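Each deposited value is a whole-number count for 1 Ensembl gene in 1 library, a count column per the file headers, with no normalization by the authors seen in the values. The submitters' processing notes list HISAT2, StringTie 1.3.0, edgeR and the build mm10 and give no role for them. The program that counted reads, its annotation and its strand setting were not given in the sources used here. Symbols, coordinates (from 1) and transcripts came from GENCODE M21 (GRCm38, the assembly of mm10), which named 34267 of 34745 genes. The other 478 held 0.103% and 0.0968% of counts (WT, KAT8 cKO) and stayed in the totals.

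Counts were scaled with TMM factors from edgeR 4.0.16 (R 4.3.3), 0.946 for WT and 1.06 for KAT8 cKO, so that 1 count was 0.0868 and 0.0689 CPM. Log2 ratios used a pseudocount of 1 CPM. A gene was measured at 1 CPM or more in either library and called lower or higher past a 2-fold difference on that scale. Folds in the text are ratios of the scaled CPM without the pseudocount, with exact (Clopper-Pearson) 95% intervals, ratios of count ratios have exact conditional intervals (scipy 1.17.1), and levels have exact Poisson intervals. All intervals treat reads as independent molecules, which reads without identifiers are not. DESeq2 1.42.0 gave only alternative size factors, and the calculations were tested on simulated data. With 1 library per genotype, no test was run and no gene could be named for a pattern like that of another.

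The 10 genes, 4 pathway lists and 17 marker lists were chosen with earlier results of these data known. Of each pathway list, the rule named up to 4 measured genes with log2 ratios of at least 1 in size, the largest first, or the 2 most abundant where fewer than 2 reached that size. The choice of any other named gene, and of the 21 pairs, came after the values were known. Ccl21c was not matched, and some genes of these lists are counted but not reported here by name.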

Additional observations from a re-analysis of the deposited data

How the results depend on the processing

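Among the 7 alternatives planned and run (CPM without TMM factors, DESeq2 size factors, totals without the 50 most abundant genes, a pseudocount of 0.1 CPM, no filter, a filter of 5 CPM, and leaving out genes with overlapping exons, of which there were none), 5 of the 10 genes were lower and 1 was higher each time. No gene's log2 ratio changed sign under them. No filter, the filter of 5 CPM and leaving out overlapping genes could not change the values of the 10 genes. Each of the 10 genes was above 5 CPM in both libraries, and none had an overlapping exon. Only the other alternatives could move the ratios. Ccl3 ranged from -3.29 to -3.06, Ccl4 from -2.81 to -2.59 and Ccl7 from 1.27 to 1.42. The median over the 10 genes was -1.13 for CPM without TMM factors, against -1.29, while that of all measured genes was 0.16 against 0.01. With the sum of 5 pan-leukocyte genes as the scale, the alternative added after the values were seen, 2 genes were lower and 2 higher, and the median was -0.13. On that scale 252 of 15420 measured genes were lower and 8689 higher, and Ccl5, Ccl9 and Ccl12 moved above 0 (0.73, 0.50 and 0.82). The calls depended on the leukocyte genes used, since Ccr1 and Ccl6 were 2.14-fold and 2.13-fold lower per count of Ptprc alone. The alternative for FPKM values was not run, since the table holds counts. No paired analysis was possible because each group has 1 library. Depth limits the intervals of Ccl5 (85 counts in each library) and Ccl12 (102 and 108).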
